A study of Mus musculus with 8 samples.

Results

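The p53 pathway genes described here are 10 mouse genes: Trp53, which encodes p53; its regulators Cdkn2a, Mdm2 and Mdm4; and the p53 target genes Cdkn1a, Ccng1, Zmat3, Phlda3, Aen and Trp53inp1. They were listed by symbol for their place in the pathway, with earlier results of these data known, and all 10 were found among the 43629 genes of the count table. Of these 10, 8 passed the expression filter, as did 12413 genes in all, while Cdkn2a and Phlda3 had too few reads to be tested. RNA was sequenced from 2 cell lines, #1.1 and #1.2, of lymphomas from Eμ-Myc mice on the C57BL/6 background. In these mice the Eμ enhancer of the immunoglobulin heavy chain locus drives a Myc transgene in B lineage cells, and all groups, the controls included, carry it. Early-passage cells of each line received 250 nM JQ1, an inhibitor of the BET bromodomain proteins, or its solvent DMSO, for 2 h. With 2 libraries in each of 4 groups, 8 libraries were compared. Nothing in the labels says that the 2 libraries of a group came from separate cultures, so the spread that p-values rest on may be technical only.

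p53 is a transcription factor that is made continuously and degraded quickly. Mdm2, a ubiquitin ligase, and its relative Mdm4 bind p53 and hold it in check, and p53 in turn activates the Mdm2 gene, so that the pair forms a feedback loop. Cdkn2a encodes Arf, which binds Mdm2 and so frees p53, and, from another start site and in another reading frame, the cyclin-dependent kinase inhibitor Ink4a. High Myc activity is a known trigger of Arf and p53, and lymphomas of Eμ-Myc mice often lose one or the other. The counts are sums over each gene, so a mutation in Trp53 and the choice between Arf and Ink4a transcripts are not seen in them, nor are protein levels.

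The libraries held 10347453 to 13049877 reads assigned to genes. The labelled cell type was checked against its markers. Of 10 B lineage markers, 9 passed the expression filter, with a summed level of 2858 to 3770 CPM (read counts relative to the scaled library size). After JQ1, 8 of these 9 were lower and 1 (Ighm) higher in the comparison averaged over the lines. Over all tested genes, 31.3% were lower and 30.7% higher. The median log2 change of the 9 was -0.74, with values from -1.59 (Cd22) to 0.19 (Ighm). Ighm, at 1405 to 1838 CPM, was the largest part of the summed level. That sum was 2858 to 2906 CPM in the JQ1 libraries of line 1.1 against 3411 to 3486 CPM in its DMSO libraries. The corresponding sums in line 1.2 were 3239 to 3322 and 3638 to 3770 CPM. The part of this shift in the results below was not tested. None of 9 T cell markers passed and 6 of them, Cd3e, Cd4 and Trac among these, had 0 reads in all libraries. Of 9 myeloid markers, 1 passed (Itgam), the list summed to at most 2.26 CPM, and Lyz2 had 0 reads. None of the 6 stromal and none of the 8 erythroid and NK cell markers passed. In RNA from a bulk culture, fewer cells of a type and less RNA per cell cannot be told apart.

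The stretches of promoter sequence below show the 2 start regions of Cdkn2a, the gene with no reads in any library. They also show start regions of Trp53, Mdm2, Ccng1 and Cdkn1a, each with a p53 half-site. Whether these sequences bear on the counts was not tested. They come from RefSeq's mouse promoter windows, build GRCm38.p6, which reach from 250 bases before to 50 bases after a transcription start. They are printed 5′ to 3′ on the gene's strand and cover only the part upstream of any annotated exon. In the Cdkn2a sequences capitals mark CG dinucleotides. In the others they mark the 10-base p53 half-site, the unit that a p53 dimer binds. A full p53 site holds 2 of them. The half-site was searched by its consensus on the sense strand, which finds both strands because the consensus is its own reverse complement.
Cdkn2a, Arf start, chr4:89294654-89294869, minus strand: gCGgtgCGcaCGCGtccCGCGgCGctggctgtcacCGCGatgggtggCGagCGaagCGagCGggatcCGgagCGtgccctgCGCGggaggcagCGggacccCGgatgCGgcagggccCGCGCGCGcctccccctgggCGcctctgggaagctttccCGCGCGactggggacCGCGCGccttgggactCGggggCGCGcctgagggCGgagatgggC
Cdkn2a, Ink4a start, chr4:89282193-89282442, minus strand: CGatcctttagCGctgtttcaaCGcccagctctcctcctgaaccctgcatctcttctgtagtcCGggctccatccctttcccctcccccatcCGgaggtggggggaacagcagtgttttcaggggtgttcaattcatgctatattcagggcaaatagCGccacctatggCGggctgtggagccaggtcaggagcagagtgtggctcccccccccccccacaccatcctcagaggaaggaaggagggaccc
Mdm2, chr10:117710759-117711008, minus strand: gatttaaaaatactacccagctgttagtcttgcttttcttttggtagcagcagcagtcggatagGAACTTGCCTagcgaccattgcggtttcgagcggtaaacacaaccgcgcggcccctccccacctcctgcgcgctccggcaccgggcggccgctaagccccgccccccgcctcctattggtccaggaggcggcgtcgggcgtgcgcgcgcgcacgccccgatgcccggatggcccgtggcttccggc
Ccng1, chr11:40755312-40755536, minus strand: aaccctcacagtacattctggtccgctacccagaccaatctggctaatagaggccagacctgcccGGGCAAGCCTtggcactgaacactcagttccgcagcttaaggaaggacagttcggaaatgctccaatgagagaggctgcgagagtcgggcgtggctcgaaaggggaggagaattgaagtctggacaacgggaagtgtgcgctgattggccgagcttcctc
Trp53, chr11:69580256-69580358, plus strand: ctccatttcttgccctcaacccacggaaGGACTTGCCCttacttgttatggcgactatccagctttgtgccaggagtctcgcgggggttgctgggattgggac
Cdkn1a, upstream start, chr17:29090729-29090975, plus strand: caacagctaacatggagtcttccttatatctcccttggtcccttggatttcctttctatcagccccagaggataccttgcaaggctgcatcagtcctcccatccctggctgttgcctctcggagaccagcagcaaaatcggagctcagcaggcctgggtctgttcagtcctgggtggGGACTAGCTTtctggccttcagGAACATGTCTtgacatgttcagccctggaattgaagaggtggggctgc

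The window of 300 bases around the Arf start held 45 CG dinucleotides, more than 98.1% of the 32851 windows in the table, whose median was 7, while the window at the Ink4a start held 12. The table had 12 windows for 8 of the 10 genes. The p53 half-site was in 6 of these windows, from 5 genes, against 8.36% of all windows and 9.55% of all genes in the table. Mdm2, Ccng1 and Trp53 held a single half-site each, which began at -186, -185 and -75 from the start site. Cdkn1a, a textbook p53 target, had 2 half-sites before its upstream start, at -73 and -51 with 12 bases between them. Over all windows, 0.359% held 2 or more. Only exact matches to the consensus were counted, so near-matches beside a half-site are not listed. Whether the 2 in Cdkn1a make up a full p53 site was not tested. In Aen the same 10 bases lay in the windows of both of its start sites. CACGTG, the sequence that Myc and Max bind with high affinity, was in 2 windows, that of Trp53 at position 10 after the start and 1 of Aen at -79, against 7.15% of all windows. Such matches describe the sequence and say nothing about occupancy in these cells.

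The genes differed widely in level before the drug, from Trp53 among the higher expressed genes to Cdkn2a without a read. Levels of different genes are compared as CPM per kb of exon, averaged over the 4 DMSO libraries. Trp53 was highest with 54.3 CPM per kb, above 91.4% of the tested genes. Trp53inp1 followed with 33.3 and Ccng1 with 24.7 CPM per kb. Aen (16.7), Mdm4 (15.3) and Mdm2 (13.2 CPM per kb) lay close together, and their values in single libraries overlapped. Zmat3 was at 4.68 CPM per kb, above 42.1% of tested genes. Cdkn1a had only 0.512 CPM per kb, above 9.92% of the tested genes, and Phlda3 had 0.302 CPM per kb. In the order of levels, Trp53, Trp53inp1, Ccng1, the group of Aen, Mdm4 and Mdm2, and Zmat3 were separated from each other in all 8 libraries, while Cdkn1a and Phlda3 overlapped.

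**Figure D1:**
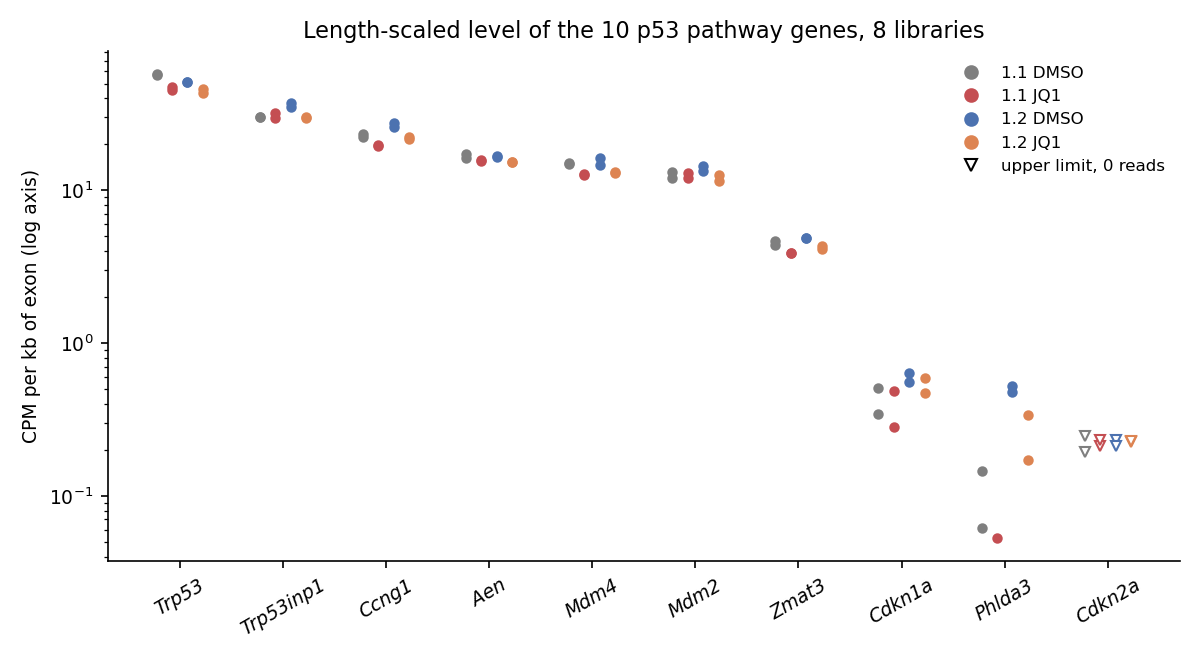
Level of each of the 10 genes in each of the 8 libraries, as CPM per kb of exon on a log axis. The genes are ordered by their mean over the 8 libraries, and colours show the 4 groups. Open triangles are the upper limits that 0 reads allow for Cdkn2a (3 reads), and the 1 library with 0 reads of Phlda3 (line 1.1 JQ1 replicate 2) is not drawn.

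Trp53 (ENSMUSG00000059552, GRCm38 chr11:69580359-69591873, plus strand) was well measured, with 2000 to 3033 reads per library. In line 1.1 its level was 230 and 234 CPM in the DMSO libraries and 182 and 191 CPM in the JQ1 libraries. In line 1.2 it was 208 and 206 CPM in DMSO and 176 and 186 CPM in JQ1. Both JQ1 libraries lay below both DMSO libraries in each line, and the DMSO libraries of line 1.1 were the highest of all. Averaged over the lines, the log2 change after JQ1 was -0.25 ± 0.034 (SE; edgeR's quasi-likelihood test, Benjamini-Hochberg adjusted p = 7.57e-07). The change passed the threshold of 0.05 in each line, with -0.31 ± 0.048 in line 1.1 and -0.19 ± 0.049 in line 1.2 (adjusted p = 7.84e-06 and 0.00218 in the same test). The call in line 1.2 was lost without line 1.2 JQ1 replicate 1 (adjusted p = 0.0629).

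Cdkn2a (ENSMUSG00000044303, chr4:89274471-89294653, minus strand) had 0 reads in every library, with DMSO and with JQ1. A count of 0 allows a level of at most 0.228 to 0.287 CPM, depending on the library, if 3 reads are taken as the limit, and this limit covers counting error only. Per kb of exon, Trp53 was at least 193-fold higher in each library. The neighbouring gene Cdkn2b, which encodes the related inhibitor Ink4b and lies 11.6 kb away, also had 0 reads in all 8 libraries. On the other side, 93.4 kb away, Mtap, a purine salvage enzyme, had 1313 to 1783 reads per library, or 118 to 136 CPM, with no call for JQ1 (0.06 ± 0.037 on the log2 scale; edgeR adjusted p = 0.157). Its level per kb was at least 159-fold higher than the limit for Cdkn2a. Beyond Cdkn2b, the protein-coding gene Dmrta1 had 0 or 1 read per library, and no protein-coding gene passed the expression filter before Gm12666 at a distance of 2896.1 kb. Within that interval the processed pseudogenes Gm12643 (1743 kb away) and Gm12669 (2511 kb away) had 697 to 925 and 304 to 492 reads per library, values that are uncertain where a near-identical copy lies elsewhere. These neighbours were looked up after the value of Cdkn2a was seen. Whether the locus is deleted, silenced or not transcribed in these cells, or its reads were lost when they were assigned to genes, cannot be told apart from counts, and the fold limits hold only if its reads were counted.

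Mdm2 (ENSMUSG00000020184, chr10:117688875-117710758, minus strand), the p53 ubiquitin ligase and itself a p53 target, was at 60.8 and 67.2 CPM in the DMSO libraries of line 1.1 and at 61.1 and 65.9 CPM in its JQ1 libraries, which overlap. In line 1.2 it was at 67.9 and 73.4 CPM in DMSO and at 58.1 and 64.3 CPM in JQ1, without overlap. The averaged log2 change of -0.11 ± 0.050 did not pass (edgeR adjusted p = 0.0643; 95% interval -0.21 to -0.0049). It was called, at between -0.11 and -0.22, with upper quartile scaling, library totals, a replicate block or the level of the non-coding RNA Gm42418 as a covariate, and without any 1 of 3 libraries (line 1.1 DMSO replicate 1, line 1.2 DMSO replicate 1 and line 1.2 JQ1 replicate 2). Within line 1.2 alone the change of -0.21 ± 0.071 passed (edgeR adjusted p = 0.017), but not with DESeq2 (adjusted p = 0.0901) or without line 1.2 DMSO replicate 2 (0.199) or JQ1 replicate 1 (0.233). In line 1.1 it was -0.0082 ± 0.071.

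Mdm4 (ENSMUSG00000054387, chr1:132959484-133030561, minus strand), which covers the activation domain of p53, fell in both lines. It was at 223 and 220.3 CPM with DMSO and at 186 and 190.2 CPM with JQ1 in line 1.1, and at 217 and 242 against 192 and 195 CPM in line 1.2. No JQ1 library reached the lowest DMSO library. The averaged log2 change was -0.25 ± 0.036 (edgeR adjusted p = 2.78e-06), and the changes within the lines were -0.24 ± 0.052 and -0.25 ± 0.052, with a difference of -0.01 (95% interval -0.16 to 0.14). The call in line 1.2 was lost with the Gm42418 covariate described under Mdm2 (-0.23, adjusted p = 0.0942).

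The p53 targets were measured over a wide range of depth. Cdkn1a (ENSMUSG00000023067, chr17:29090976-29100727, plus strand) encodes p21, the cyclin-dependent kinase inhibitor through which p53 arrests the cell cycle. It had only 11 to 25 reads in a library. Its level was 1.22 and 1.82 CPM with DMSO and 1.74 and 1.003 CPM with JQ1 in line 1.1, and 2.26 and 1.99 against 2.11 and 1.68 CPM in line 1.2. The groups overlapped in both lines. The averaged log2 change was -0.13 ± 0.24 (edgeR adjusted p = 0.667), with a 95% interval from -0.63 to 0.37, so a change of the size seen in Trp53 was not detectable at this depth. The value was positive without line 1.1 DMSO replicate 2 (0.014) or without line 1.1 JQ1 replicate 2 (0.034). A gene model on the opposite strand, AC167363.2, shares 273 bases or 7.68% of the exons of Cdkn1a, and reads of the 2 genes cannot be told apart there, since the strand setting of the counting is not given in the sources used here.

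Ccng1 (ENSMUSG00000020326, chr11:40748552-40755311, minus strand), which encodes cyclin G1, a partner of protein phosphatase 2A that acts on Mdm2, fell in both lines. With DMSO it was at 81.6 and 78.1 CPM in line 1.1 and at 96.2 and 91.5 CPM in line 1.2. With JQ1 it was at 70.0 and 69.0 CPM in line 1.1 and at 78.2 and 76.2 CPM in line 1.2. Both libraries of line 1.2 lay above both of line 1.1 under either treatment. The averaged log2 change was -0.24 ± 0.041 (edgeR adjusted p = 1.83e-05), with -0.20 in line 1.1 and -0.28 in line 1.2. The call in line 1.1 was lost without line 1.1 JQ1 replicate 2 (adjusted p = 0.0547) and that in line 1.2 with the Gm42418 covariate (adjusted p = 0.251).

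Zmat3 (ENSMUSG00000027663, chr3:32334792-32366014, minus strand) encodes an RNA-binding zinc finger protein. In line 1.1 it was at 50.1 and 53.1 CPM with DMSO and at 44.4 and 44.2 CPM with JQ1, and in line 1.2 at 55.6 and 55.5 against 46.9 and 49.5 CPM. All JQ1 libraries lay below all DMSO libraries, across the lines too. The averaged log2 change was -0.21 ± 0.048 (edgeR adjusted p = 0.000529). Within a line it passed (-0.21 in line 1.1 and -0.20 in line 1.2), but neither call held with DESeq2, where the adjusted p was 0.0847 and 0.105, and each was lost without any 1 of 3 libraries. These were DMSO replicate 2 and both JQ1 replicates for line 1.1, and both DMSO replicates and JQ1 replicate 1 for line 1.2, with adjusted p from 0.0523 to 0.0646 and from 0.0585 to 0.130. The Gm42418 covariate also ended the call in line 1.2 (-0.36, adjusted p = 0.0604).

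Aen (ENSMUSG00000030609, chr7:78895854-78911209, plus strand), a nuclease of apoptotic cells, had the smallest averaged change of the 8 tested genes. Its level was 100.3 and 94.7 CPM with DMSO and 90.8 and 91.8 CPM with JQ1 in line 1.1, and 96.7 and 95.2 against 89.2 and 88.6 CPM in line 1.2. The groups did not overlap, but the gap was small. The averaged log2 change was -0.10 ± 0.039 (edgeR adjusted p = 0.0246) and did not pass with DESeq2 (adjusted p = 0.118), with no filter on low counts (0.0674), with the Gm42418 covariate (0.392), or without any 1 of 6 of the libraries, where the adjusted p ranged from 0.0593 to 0.0852. The exceptions were line 1.1 DMSO replicate 2 and line 1.2 DMSO replicate 2.

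Trp53inp1 (ENSMUSG00000028211, chr4:11156431-11174379, plus strand) encodes a stress protein that promotes p53 phosphorylation and autophagy. In line 1.1 it was at 197 and 195 CPM with DMSO and at 207 and 194 CPM with JQ1, which overlap. In line 1.2 it was at 227 and 243 CPM with DMSO and at 192 and 197 CPM with JQ1. Only the DMSO libraries of line 1.2 stood above the rest, and the other 6 lay between 192 and 207 CPM. The log2 change was 0.03 ± 0.050 in line 1.1 (edgeR adjusted p = 0.628) and -0.27 ± 0.050 in line 1.2 (adjusted p = 7.21e-05). The difference of these effects was -0.31 ± 0.071, with an unadjusted p of 0.000251 and a Benjamini-Hochberg adjusted p of 0.116 in edgeR's test, which does not pass. It passed with no filter on low counts (-0.29, adjusted p = 0.0237) and without line 1.1 DMSO replicate 1 (-0.31, 0.00417) or replicate 2 (-0.30, 0.0187). Averaged over the lines, the change was -0.12 ± 0.036 (adjusted p = 0.00473), and this call was lost without line 1.1 JQ1 replicate 2 (adjusted p = 0.0525).

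Phlda3 (ENSMUSG00000041801, chr1:135766119-135769136, plus strand), which encodes an inhibitor of the kinase Akt, was close to the limit of detection. It had 3 and 1 reads with DMSO and 1 and 0 reads with JQ1 in line 1.1, and 9 and 9 against 6 and 3 reads in line 1.2, at most 0.812 CPM. Each library of line 1.2 held at least as many reads as the highest of line 1.1. It entered a test only when no filter was applied. Line 1.2 was then above line 1.1 in DMSO by 2.13 ± 0.76 on the log2 scale (edgeR adjusted p = 0.0891), and the averaged JQ1 effect was -1.34 ± 0.77 (adjusted p = 0.192). Neither passed.

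**Figure D2:**
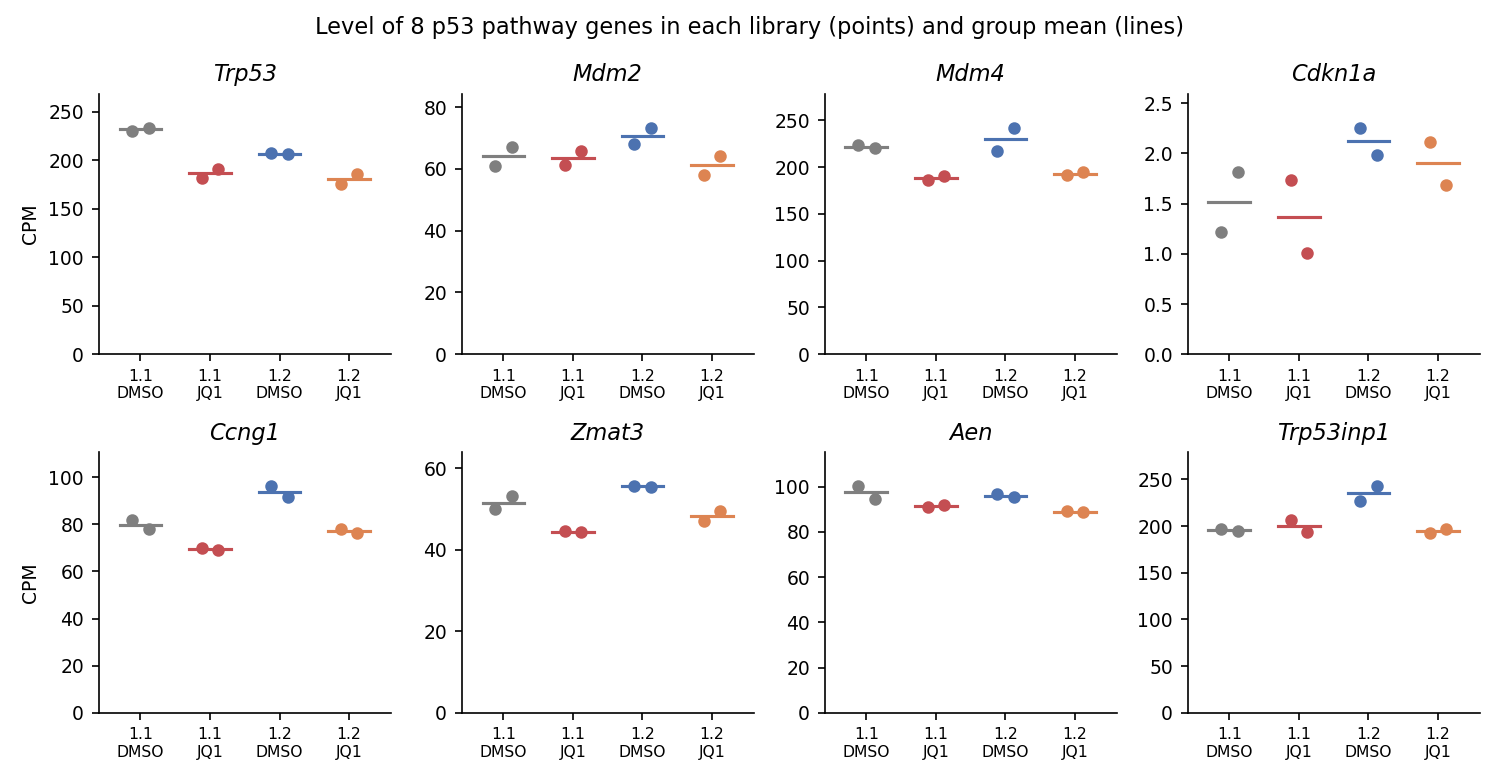
Level in CPM (y axis, from 0) of the 8 tested genes in each library (points) and the mean of each group of 2 (lines). Trp53, Mdm4, Ccng1, Zmat3 and Aen were lower in JQ1 than in DMSO in both lines without overlap, and Trp53inp1 was higher only in the DMSO libraries of line 1.2 (227 and 243 CPM).

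Taking the genes as a group, 6 of the 8 tested were lower after JQ1 in the comparison averaged over the lines and 0 were higher. Over all genes tested, 31.3% were lower and 30.7% higher, 62% in either direction. The median log2 change was -0.17 for the 8 genes and 0.0036 for all genes, but the changes were small: the median absolute change of all genes was 0.25, the size of the change in Trp53 and Mdm4. In line 1.1, 4 genes were called lower (Trp53, Mdm4, Ccng1 and Zmat3), where 26.1% of all genes were lower, 24.9% higher and 51% either, with a median of -0.15. In line 1.2, 6 were (the same 4 with Mdm2 and Trp53inp1), where 25% of all genes were lower, 24.4% higher and 49.4% either, with a median of -0.21. Without line 1.1 JQ1 replicate 2 the count in line 1.1 was 2, and the count in line 1.2 was 3 without line 1.2 JQ1 replicate 1 or with the Gm42418 covariate. In each of these settings fewer of all tested genes were called as well than with all 8 libraries and no covariate. No gene of the 8 passed a test against a fold change of 1.5.

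Separation between libraries gave a like picture. Both JQ1 libraries lay below both DMSO libraries for 5 of the 8 genes in line 1.1, as for 36.6% of all tested genes, and for 7 of the 8 in line 1.2, as for 38%. For the 5 genes Trp53, Mdm4, Ccng1, Zmat3 and Aen this held in both lines, as it did for 29.8% of all tested genes. None of the 8 had both JQ1 libraries above both DMSO libraries in either line, as 36.7% of all tested genes had in line 1.1, 37.2% in line 1.2 and 28.8% in both.

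**Figure D3:**
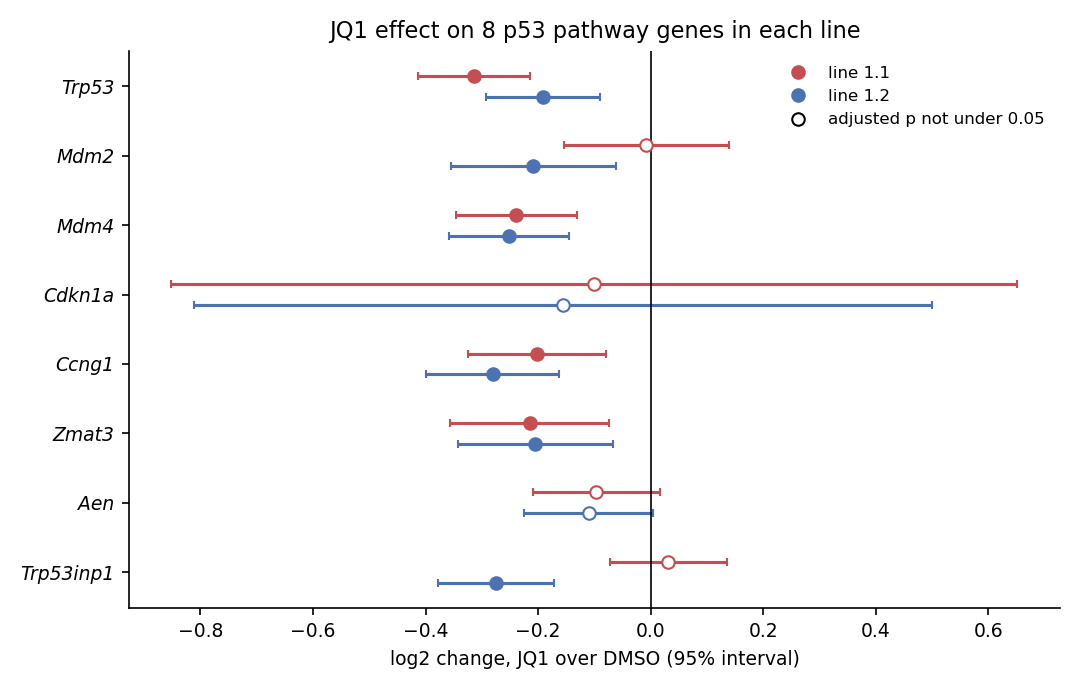
log2 change of JQ1 over DMSO (x axis) in line 1.1 and line 1.2 with 95% intervals from edgeR's fit, where filled points passed an adjusted p of 0.05. Trp53inp1 is the gene whose intervals in the 2 lines do not overlap (0.03 and -0.27), and the interval of Cdkn1a, with few reads, is the widest.

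None of the 8 genes had a JQ1 effect that differed between the lines by edgeR's test of the difference, in which 14 of 12413 genes (0.113%) passed, 0.0806% with a positive and 0.0322% with a negative difference. At an unadjusted p under 0.05 there was 1 gene of the 8, Trp53inp1, and 1000 of all genes. DESeq2 called 0 of the 8 and limma-voom 0. Next to Trp53inp1, the difference was -0.20 ± 0.10 for Mdm2 (unadjusted p = 0.0572; adjusted p = 0.624) and 0.12 ± 0.069 for Trp53 (unadjusted p = 0.0882; adjusted p = 0.659). For the other 5 the difference lay between -0.08 (Ccng1) and 0.01 (Zmat3).

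At baseline, in DMSO, 3 of the 8 genes differed between the lines, where 6.77% of all genes did, 3.17% lower and 3.59% higher in line 1.2. Trp53 was lower in line 1.2 by a log2 difference of -0.17 ± 0.048 (edgeR adjusted p = 0.0378). Its targets Ccng1 (0.23 ± 0.057, adjusted p = 0.0142) and Trp53inp1 (0.26 ± 0.050, adjusted p = 0.00135) were higher. For each of these 3 genes both libraries of a line lay on the same side of both libraries of the other. Mdm2 was at 0.15 ± 0.070 (unadjusted p = 0.0457; adjusted p = 0.237), Zmat3 at 0.11, Mdm4 at 0.05 and Aen at -0.02, and none of these passed. Cdkn1a was at 0.51 ± 0.33 (edgeR adjusted p = 0.419; 95% interval -0.18 to 1.19). The count of 3 was 1 with DESeq2, with a fit of only the 4 DMSO libraries, at a threshold of 0.01 and without line 1.2 DMSO replicate 1, and 0 without line 1.2 DMSO replicate 2. In DESeq2 the gene that kept its call was Trp53inp1. The call of Trp53 was the least firm, lost under 12 of 20 alternatives, against 6 for Ccng1 and 2 for Trp53inp1. The JQ1 libraries share in the estimate of the spread, and the call of Trp53 was lost without any 1 of the 4 (adjusted p from 0.0589 to 0.0668).

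In the JQ1 libraries, whose levels do not enter the baseline difference, none of the 8 genes passed between the lines in edgeR's test, where 6.4% of all genes did, 2.92% lower and 3.49% higher in line 1.2, and the count was 0 under each alternative run. At an unadjusted p under 0.05 it was 1 gene, Ccng1. Trp53 was at -0.04 (95% interval -0.14 to 0.06), Trp53inp1 at -0.04 (-0.15 to 0.06) and Ccng1 at 0.15 ± 0.060 (edgeR adjusted p = 0.139). The baseline differences and the JQ1 effects within a line share the DMSO libraries of that line, so the high DMSO values of Trp53inp1 in line 1.2 enter both.

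Likeness was searched among 8448 genes that averaged 5 CPM or more, without clones, pseudogenes, mitochondrially encoded genes and genes named only by an identifier. The genes whose pattern over the 8 libraries was most like that of a member were found by the root mean square difference of centred log2 CPM. For Trp53 these included Pum3 and Ebna1bp2, with differences of 0.0172 and 0.0213 against a median of 0.204 over all genes searched. For Mdm2 they were Cstf2t (0.0447), Ifngr2 (0.0488) and Dync1i2 (0.0491; median 0.178). For Cdkn1a, whose pattern rests on few reads, they were Zfhx3 (0.109), Zc3h6 (0.130) and Cntrob (0.135; median 0.322).

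The wider set of p53 target genes held rises and falls. Of 36 further listed targets, 31 were tested, and after JQ1 15 were higher, 7 lower and 9 did not pass, with a median log2 change of 0.30, where 30.7% of all tested genes were higher and 31.3% lower. Btg2, an antiproliferative gene, rose from 124 and 126 to 235 and 216 CPM in line 1.1 and from 134 and 140.1 to 219 and 231 CPM in line 1.2, an averaged log2 change of 0.78 ± 0.037 (edgeR adjusted p = 5.63e-15). Sesn2, which encodes a stress-induced inhibitor of mTORC1 signalling, rose by 1.19 ± 0.092, and Xpc, a DNA damage sensor of nucleotide excision repair, by 0.67 ± 0.056 (edgeR adjusted p = 5.58e-11 and 1.92e-10). Gadd45a rose by 1.67 from a low level, 1.90 to 3.06 CPM in the DMSO libraries and 6.36 to 7.75 CPM in the JQ1 libraries. The other risers were Ercc5 (0.68), Plk3 (0.67), Ddit4 (0.61), the pro-apoptotic BH3 genes Pmaip1 (0.46) and Bbc3 (0.42), Apaf1 (0.43), Ckap2 (0.39), Sesn1 (0.33), Rap2b (0.30), Fbxw7 (0.30) and Siva1 (0.21). Those that fell were Psrc1 (-1.56, at 0.547 to 3.07 CPM), Cd82 (-0.63), Polk (-0.49), Pidd1 (-0.43), Dglucy (-0.35), Ei24 (-0.24) and Gtse1 (-0.15). Psrc1 had 6 and 8 reads in the JQ1 libraries of line 1.1 and 7 and 9 in those of line 1.2. It passed the expression filter only through its DMSO libraries, where it was higher, so its place among the 7 lower rests partly on the filter. The 9 that did not pass were Ddb2 (0.33), Ppm1d (0.10), Bax (0.05), Tigar (0.05), Triap1 (-0.0048), Rrm2b (-0.10), Dcxr (-0.19), Tnfrsf10b (-0.40) and Plk2, for which no value is given. Plk2 had 17 and 10 reads in the JQ1 libraries of line 1.1, through which it passed the filter, and 0 or 1 read in each library of line 1.2. Fas and Perp had 0 reads in all libraries. No test of the difference between the 2 sets of targets was run.

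Between the lines in DMSO, 3 of the 31 further targets were higher in line 1.2 (Ddit4, 0.63; Dglucy, 0.49; Ei24, 0.25), where 3.59% of all genes were higher and 3.17% lower. Plk3 was lower by a log2 difference of -0.95 ± 0.24 (edgeR adjusted p = 0.018). Plk2 had 3 and 7 reads in the DMSO libraries of line 1.1 and 0 in those of line 1.2. edgeR also called it lower, but with so few reads the call is not counted and no fold is given.

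Genes that act on p53 showed no common direction. Of 22 tested kinases, acetylases, ubiquitin ligases and other modifiers, 6 were higher and 8 lower after JQ1, with a median log2 change of -0.03. These shares are near those of all tested genes, 30.7% higher and 31.3% lower. Sirt1, the deacetylase that removes acetyl groups from p53, rose by 1.04 ± 0.045, and Ppp1r13b, which encodes the p53 cofactor ASPP1, by 1.10 ± 0.073. Atm, the DNA damage kinase that phosphorylates p53 and Mdm2, fell by 0.52 ± 0.044 (edgeR adjusted p = 9.63e-16, 3.41e-12 and 3.94e-10). In DMSO, Usp10, a deubiquitinase of p53, was lower in line 1.2 (-0.19 ± 0.049, edgeR adjusted p = 0.0178), and no other gene of this list passed there.

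A further list held 21 partners of Arf and regulators of the Cdkn2a locus, with the neighbours Mtap and Cdkn2b among them. Of these 17 were tested, Mtap included, with 10 higher, 3 lower and a median of 0.10 after JQ1, beside 30.7% higher and 31.3% lower over all tested genes. Bmi1, a Polycomb protein known as a repressor of Cdkn2a, lay between 141 and 156 CPM in the DMSO libraries and between 89.1 and 97.1 CPM in the JQ1 libraries, an averaged log2 change of -0.69 ± 0.040 (edgeR adjusted p = 2.52e-13). Cbx8, another Polycomb subunit, rose by 1.05 ± 0.098 and Zbtb7a by 0.25 ± 0.038.  In DMSO, Eed (-0.20) and Dmtf1, an activator of Arf (-0.21), were lower in line 1.2 (edgeR adjusted p = 0.0341 and 0.0497). Cdkn2a stayed at 0 reads in all of these libraries.

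Among 16 paralogues of the genes, 9 were tested, with 6 higher and 1 lower after JQ1 and a median of 0.15, beside the same shares of 30.7% and 31.3% over all tested genes. Trp53inp2, the paralogue of Trp53inp1 with a role in autophagy, lay between 2.28 and 2.90 CPM in DMSO and between 11.4 and 14.0 CPM in JQ1, an averaged log2 change of 2.36 ± 0.13 (edgeR adjusted p = 1.3e-13). Isg20 (1.20) and Isg20l2 (0.11), which are related to Aen, and Zmat1 (1.55), which is related to Zmat3, rose as well. Isg20 held only 4 to 15 reads in a library and Zmat1 4 to 25, so both values rest on few reads. Both passed the expression filter only through their JQ1 libraries, where they were higher. Their place among the 6 higher genes, and their part in the median, therefore rest partly on the filter. In line 1.1 alone Isg20 did not pass (edgeR adjusted p = 0.0619). Of the cell cycle inhibitors, Cdkn2d (0.38) and Cdkn1b (0.15), which encodes p27, rose and Cdkn2c fell by 0.35, while the p53 relatives Trp63 and Trp73 had at most 2 reads in any library. Ccng2 (-0.06) and Zmat5 (-0.19) did not pass. In DMSO, Ccng2 (0.54), Cdkn1b (0.39) and Cdkn2d (0.34) were higher in line 1.2 (edgeR adjusted p = 7.64e-05, 0.000444 and 0.046).

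**Figure D4:**
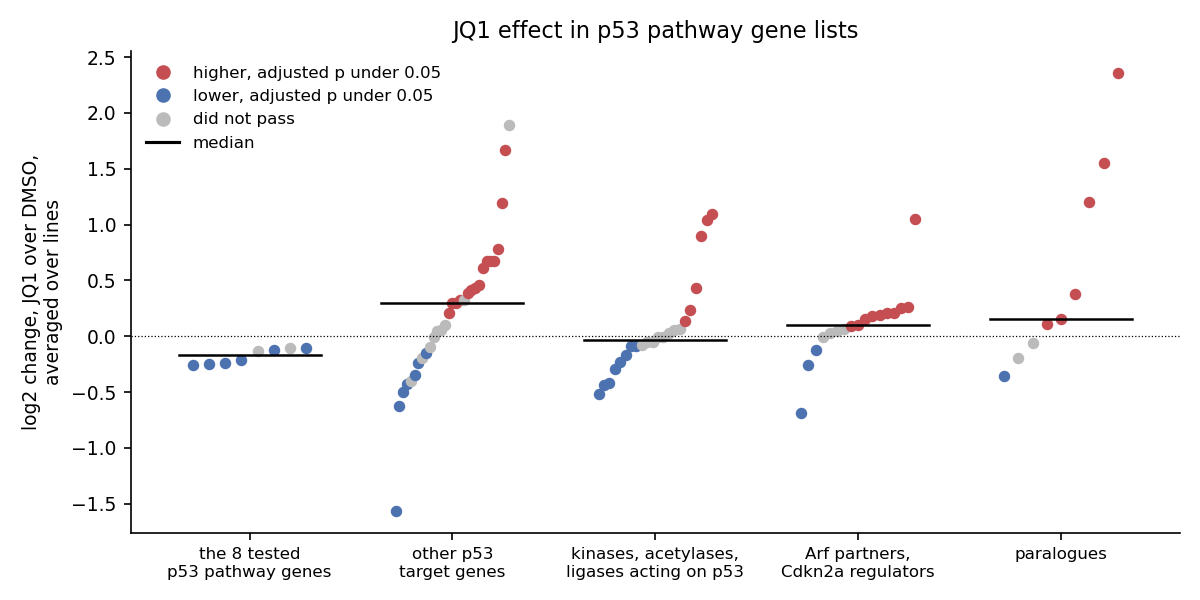
Averaged log2 change of JQ1 over DMSO (y axis) for each tested gene of the 5 lists, ordered within a list, with the list's median as a line and colours for calls at an adjusted p of 0.05. The 8 p53 pathway genes lie between -0.25 and -0.10, whereas the called further p53 targets span -1.56 to 1.67 with a list median of 0.30. The lowest point of that list is Psrc1, which rests on few reads and passed the expression filter only through its DMSO libraries. The highest grey point of that list is Plk2, a fitted value that rests on few reads and on a group at 0 reads.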

How the data were processed

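RNA-seq libraries of 2 Eμ-Myc lymphoma lines, treated for 2 h with 250 nM JQ1 or DMSO, were analysed (8 libraries, 2 per group, groups taken from the labels). The authors deposited raw counts, 1 whole number per Ensembl gene and library, without normalisation. Tools named in the submitters' processing notes are HTSeq, TopHat, Bowtie2, cutadapt 1.7, FastQC and limma, and the build is GRCm38 (mm10). Not given in the sources used here are the annotation release, the strand setting and the other versions. The 5 HTSeq summary lines were left out of all library sizes. Of these, reads in no gene were 12.3 to 13.1% of a library with DMSO and 14.0 to 14.4% with JQ1, without overlap. Ambiguous reads were 1.54 to 1.67% of a library. The part of the former shift in the JQ1 changes was not tested.

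All further values are from R 4.3.3 and Python scripts. With edgeR 4.0.16, a test was made of the 12413 genes kept by filterByExpr (minimum count 10, minimum total 15) with TMM scaling, 4 group means and 4 residual degrees of freedom. Each of 6 contrasts was tested two-sided by the quasi-likelihood F test, with Benjamini-Hochberg adjustment over all genes tested and a threshold of 0.05. The SE of a log2 change was derived from the F statistic, and values with ± are log2 change ± SE. CPM is edgeR's cpm on the TMM-scaled library size, and exon lengths and coordinates are from GENCODE M21 (GRCm38). The fit was tested on simulated counts.

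The genes, the lists, the tests and the alternatives were chosen with earlier results of these data known. All 10 genes are named. From each other list up to 3 genes with the smallest p for the averaged JQ1 effect and up to 2 for the line contrast in DMSO were named, with a mean of at least 1 CPM. The further p53 targets and the paralogues that were tested are listed in full. 1 gene of the 23 listed modifiers of p53 was not matched by symbol. For likeness, 0.5 CPM was added before taking logs, and 1 gene that this rule names is not reported here. In promoters, the p53 half-site, CACGTG and CG were counted. CCAAT was also looked at and is not reported.

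The alternatives were DESeq2's size factors, upper quartile and library totals as scaling, DESeq2 1.42.0 and limma-voom (limma 3.58.1) as tests, no filter on low counts, a filter of 5 CPM in 2 libraries, a fit of the 4 libraries compared, the replicate number as a block, each library left out, a test against a fold change of 1.5, a threshold of 0.01, and the Gm42418 level as a covariate.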

Additional observations from a re-analysis of the deposited data

How the results depend on the processing

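Every count of called p53 pathway genes fell to 0 in the test against a fold change of 1.5. The count for the JQ1 effect in line 1.2 was 3 with the Gm42418 covariate, and that for the difference of the effects was 1 with no filter on low counts. The line contrast in DMSO had 1 call with DESeq2, with only the 4 libraries compared and at a threshold of 0.01. With 1 library left out, the counts ranged from 4 to 6 for the averaged effect, 2 to 4 in line 1.1, 3 to 7 in line 1.2, 0 to 1 for the difference and 0 to 3 for the line contrast in DMSO. The count of all genes called also changed with the library left out, so these ranges are not a trait of the 8 genes alone. Of the members' log2 changes, only ones that had not passed changed sign. With the Gm42418 covariate these were Mdm2 in line 1.1 (0.021), the difference of effects for Mdm4 (0.012), Ccng1 (0.019), Zmat3 (-0.16) and Aen (0.092), and the line contrast in JQ1 for Zmat3 (-0.0044) and Aen (0.040). With library totals it was Trp53inp1 in line 1.1 (-0.0096). With 1 library left out, Cdkn1a ranged from -0.36 to 0.034 averaged, -0.56 to 0.22 in line 1.1 and -0.38 to 0.40 for the difference. The same ranges were -0.089 to 0.058 for Mdm2 and -0.015 to 0.081 for Trp53inp1 in line 1.1. For the difference of effects they were -0.089 to 0.068 (Mdm4), -0.035 to 0.059 (Zmat3) and -0.053 to 0.025 (Aen). For the line contrast in DMSO they were -0.030 to 0.12 (Mdm4) and -0.068 to 0.013 (Aen), and in JQ1 -0.13 to 0.018 (Mdm2) and -0.094 to 0.0024 (Trp53inp1). Over all genes tested, the test against a fold change of 1.5 called 1458 genes for the averaged effect against 7692, 1184 against 6334 in line 1.1, 1082 against 6136 in line 1.2, 2 against 14 for the difference, 87 against 840 for the line contrast in DMSO and 74 against 795 in JQ1. The Gm42418 covariate left 2887 genes in line 1.2, 8 for the difference and 357 for the line contrast in JQ1. DESeq2 gave 6, 303 and 328 genes for the difference and the line contrasts in DMSO and JQ1. Fits of the 4 libraries compared gave 445 and 1635 for the line contrasts. The difference had 80 genes with no filter and 8 with the stricter one, and with 1 library left out 8 to 459 genes, against 313 to 1318 and 281 to 1538 for the line contrasts. The labels number the libraries of each group 1 and 2. Deviations of same-numbered libraries correlated at -0.03 to 0.07, so no large shift was shared by a number. Whether same-numbered libraries were prepared together cannot be told from this. With a replicate block, 7 of the 8 genes were called for the averaged effect (Mdm2 added), 4 and 6 within the lines, 0 for the difference, 3 for the line contrast in DMSO and 0 in JQ1. The counts of all genes with the block were, in the same order, 7709, 6361 and 6148, 26, 872 and 810. Genes with few reads, Cdkn1a (11 to 25) and Phlda3 (0 to 9), are limited by depth.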
